A study of Mus musculus with 8 samples.

Results

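The m6A profile of αTC1-6 cells that had received an siRNA against Mettl14 (M14KD) was read from 4 libraries of the 8 in the study. They were chosen by their labels alone: 2 libraries of RNA pulled down with an antibody against m6A (IP, replicates 3 and 4) and 2 Input libraries with the same replicate numbers, which hold the RNA before that selection. αTC1-6 is an established line of immortalized mouse pancreatic alpha cells, the islet cells that make glucagon, so the results come from 1 line and not from islets. The other 4 libraries, 2 IP and 2 Input (replicates 1 and 2), came from cells of the same line given a scramble siRNA (SCR). All 8 libraries thus come from siRNA-treated cells, and no untreated cells were compared. The assay was m6A-eCLIP, in which the antibody is fixed to RNA by ultraviolet light and reads are counted at single positions. The table held 33774 sites, of which 33724 were 1 base long. In all, 31927 sites (94.5%) lay in the span of 1 named RefSeq gene, and these named sites fell in 6531 genes with a median of 3 sites.

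The m6A mark is a methyl group on adenosine and a common internal modification of messenger RNA. It is written by a complex whose core is Mettl3, the catalytic subunit, and Mettl14, which holds the RNA, together with Wtap, Virma, Cbll1, Rbm15 and Rbm15b. The mark is best known from the motif GGAC and its relatives, from long exons and from the stretch around the stop codon. Reader proteins such as Ythdf2 bind it and can speed the decay of the RNA, and Fto and Alkbh5 can remove it.

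The letters around a site could be read where it lay in the 300-base window that RefSeq's promoter table gives for a gene start (250 bases before to 50 after it, build GRCm38.p6, the RefSeq form of mm10). This held for 422 tested sites. They lie near gene starts and are not a sample of all sites. The sequences below are 21 bases long, on the strand of the gene, with the site in the middle. Capitals mark a match to GGAC or to 1 of 5 relatives (AGAC and also GAAC, as well as AAAC, with TAAC and then TGAC), the one nearest the site. They are the 6 sites with the largest IP over Input ratios and the 4 with the lowest among called sites with at least 10 counts in each M14KD library, 1 per gene, and they are shown because high and low sites differed in how often GGAC stood beside them. The sites higher in IP were:
Rbbp6 (chr7:122970593-122970613, + strand): ggtcattcGGACtctaacgtg
Hnrnph1 (chr11:50377762-50377782, + strand): cttatcatttctcctcagcca
Abhd2 (chr7:79273257-79273277, + strand): atttctatgagcgcagccggc
Txndc11 (chr16:11088136-11088156, - strand): atgttgcaGGACcatatcccg
Klc1 (chr12:111758878-111758898, + strand): cgacgccattttcggcggcgg
Nkx2-2 (chr2:147186416-147186436, - strand): ccttatatGGACtgatcgctc
The sites lower in IP were:
Tomm22 (chr15:79670869-79670889, + strand): tccgcttccggtgtcctacag
Atp5e (chr2:174464078-174464098, - strand): accccttccgctactcaggcc
Srsf3 (chr17:29032661-29032681, + strand): cggtggtggtccgccatttcg
Slc38a5 (chrX:8271385-8271405, + strand): tgggggcgggagatagGGACt

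At the Rbbp6, Txndc11 and Nkx2-2 sites the A of GGAC was the site itself. The Slc38a5 window, from a glutamine transporter gene, also held GGAC, but its A lay 8 bases after the site. At the Rbbp6 site, in a gene for a ubiquitin ligase that binds the 3′ processing machinery, Input replicates 3 and 4 had 12.6 and 13.0 CPM and the IP libraries 38.9 and 34.1. CPM are counts scaled to the same library total by the TMM method, which puts the typical site at the same level in all libraries. The site at Nkx2-2, an islet transcription factor gene, had 8.65 and 8.94 CPM in Input and 16.2 and 14.8 in IP, and it also lies in the span of another gene. The Tomm22 site, 11 bases after the start of the gene for a mitochondrial import receptor, had 44.3 and 43.6 CPM in Input and 3.28 and 4.0 in IP.

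Among the 422 windows, 28 were at sites higher in IP, 306 at sites lower in IP and 88 at sites that did not pass the test, against 33.8% higher and 33.1% lower over all tested sites. GGAC on the gene's strand was in 11 of the 28 higher windows (39.3%), in 30 of the 306 lower windows (9.80%) and in 7 of the 88 others. It was in 7.53% of 262808 windows of the same length, cut every 5 bases from 0 to 35 bases after the starts of all 32851 promoters. These promoter windows are not matched in position to the windows at sites. The site lay at or after the start in 64.3% of the higher windows, 86.3% of the lower windows and 69.3% of the others. Any of the 6 motifs was in 16 higher windows (57.1%), 99 lower windows (32.4%) and 24 of the others, beside 31.5% of all promoter windows. A motif whose A was the site itself was in 8 of 28 higher windows (28.6%), 5 of 306 lower windows (1.63%) and 10 of the 88 others, beside 1.90% of all promoter windows. The site itself was an A in 10 of 28 higher windows (35.7%), 114 of 306 lower windows (37.3%) and 35 of the 88 others. The middle base was an A in 23.3% of all promoter windows. Most of these higher sites were thus not at an A on the gene's strand. On the opposite strand the 6 motifs were in 10, 95 and 32 windows, beside 31.0%. Motifs were searched as exact letters, overlaps were allowed and a window counted once. The 28 higher windows came from 20 genes and neighbouring windows share letters, so no test was made.

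The libraries are described together. Summed site counts were 3438530 to 3637740 in the 4 Input libraries and 10207383 to 10918559 in the 4 IP libraries, and a typical M14KD site had 31 to 33 counts in Input, 162 to 167 in IP. Mettl14, the knockdown target, had 32 and 22 counts in the M14KD Input libraries and 64 and 44 in SCR Input, and 42 and 25 in M14KD IP beside 78 and 81 in SCR IP. Its summed counts were below both SCR libraries in each kind of M14KD library. Of 14 alpha cell markers, 11 had a site, led by Gcg, the glucagon gene, which held 5.80% and 5.74% of the M14KD Input counts. None of 11 markers of other islet cells (Ins1, Ins2, Sst, Ppy and others) had a site, and of 10 markers of non-endocrine cells only Sox9 had one, with 0 and 2.30 CPM in Input and 4.11 and 4.13 in IP. The labels do not tie the replicates to separate cultures, and p-values therefore measure the spread between these libraries, which may be technical. Since the libraries are bulk, fewer cells with a transcript and less of it per cell cannot be told apart.

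The comparison of IP with Input asks which sites the antibody pulled down more or less than a typical site of the table. By edgeR's quasi-likelihood test (adjusted p under 0.05, Benjamini-Hochberg), 22311 of 33356 tested sites (66.9%) differed between the M14KD IP and Input libraries. Of these 11261 (33.8%) were higher and 11050 (33.1%) lower in IP. Tested against a minimum fold of 2, 3093 sites (9.27%) were higher and 4332 (13%) lower. The middle 80% of sites spanned from 2.89-fold below to 2.67-fold above, a log2 range of 2.95. Taken for each replicate number alone, with 0.5 CPM added, the range was 2.88 for replicate 3 and 2.86 for replicate 4. The median standard error (SE) of a site's log2 ratio was 0.21.

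The number of sites above or below 0 depends on what the ratio is measured against. Against column totals every log2 ratio moved up by a median of 0.72, with 19535 sites higher and 5632 lower, and higher sites made up 77.6% of the calls in place of 50.5%. Against the 124 mitochondrial sites the shift was 2.48, with 31992 higher and 178 lower. The mitochondrial sites held 26.7% and 26.2% of the counts in Input and 7.63% and 7.92% in IP. Below, higher and lower mean relative to the typical site (TMM scaling) unless stated. At gene level the shifts were 0.71 and 2.45, so a gene more than 0.71 below 0 stays below it with column totals, and a gene more than 2.45 below 0 stays below it on the mitochondrial base.

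The named sites higher in IP lay in genes of several kinds, with fitted folds of at least 7.55. The highest of them was in Chpf2, a gene of chondroitin sulfate synthesis, at position 24592278 of chromosome 5, 2120 bases from the gene's end. It had 8.65 and 7.45 CPM in Input and 69.9 and 74.6 in IP, an 8.95-fold difference (log2 3.16, SE 0.17, edgeR adjusted p = 8.382e-17). Pfkfb2, an enzyme that sets the pace of glycolysis, had 4.68 and 4.47 CPM in Input and 44.4 and 36.6 in IP at position 130690786 of chromosome 1, 1743 bases from its end. Both IP values lay above both Input values at each of these sites, but the rule for naming sites required this.

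Rbm15b, an adaptor that brings the m6A writer to its RNAs, carried the third highest of these sites, at position 106886061 of chromosome 9 and 1014 bases from the gene's start. Its Input values were 7.93 and 8.94 CPM and its IP values 67.9 and 79.9 (log2 3.13, SE 0.17). Rnf157, a ubiquitin ligase, had 8.65 and 7.83 CPM in Input and 66.8 and 72.9 in IP at position 116338311 of chromosome 11. Fem1a, a substrate receptor of a ubiquitin ligase, had 6.49 and 7.83 CPM against 56.4 and 63.0 at position 56259270 of chromosome 17. Nol12, a nucleolar RNA-binding protein, had the deepest of these sites, at position 78937938 of chromosome 15. It had 19.1 and 22.7 CPM in Input and 164 and 183 in IP (log2 3.06, SE 0.13).

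Of the remaining named higher sites, Socs5, a suppressor of cytokine signalling, had a log2 ratio of 3.01 (SE 0.20). Wbp1l, 2352 bases from its end, had 2.96 (SE 0.18) and Pcyox1l 2.92 (SE 0.22). Chpf2, Pfkfb2, Rnf157 and Wbp1l had their sites between 1743 and 2352 bases from the annotated gene end. The site with the deepest IP signal among 4 with no count in either Input library was in Zfp446, a zinc finger gene, with 43 and 39 IP counts. Its ratio was at least 5.64-fold, against a floor of 3 counts over both Input libraries. A site in Arhgap29, a GTPase activator, had 48 and 33 IP counts and at least 5.56-fold, and one in Brd1, a chromatin reader, 21 and 15 counts and at least 2.47-fold. The last, at position 122482900 of chromosome 8 and with no single gene name, had 7 and 8 counts, at least 1.03-fold.

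The named sites lower in IP were in genes of several kinds, with fitted ratios from 11.2-fold to 18.7-fold below the typical site. All 10 were also lower with column totals and on the mitochondrial base. The lowest was in Tob1, an antiproliferative protein that recruits deadenylases, at position 94215134 of chromosome 11, 361 bases from its end. It had 17.7 and 16.8 CPM in Input and 0.82 and 0.999 in IP (log2 -4.22, SE 0.29, edgeR adjusted p = 3.351e-14). Ift80, of the intraflagellar transport machinery, had 13.3 and 12.7 CPM in Input and 0.97 and 0.77 in IP. Hnrnpdl, an RNA-binding protein, had 26.3 and 19 CPM against 1.64 and 2.0.

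Eef2, the elongation factor that moves the ribosome along, held the most deeply counted low site, at position 81181948 of chromosome 10 and 561 bases from its end. Input had 300.5 and 351 CPM there and IP 25.5 and 28.1 (log2 -3.60, SE 0.10). Lonp1, a mitochondrial protease, had 94.8 and 103 CPM in Input and 8.93 and 8.22 in IP, 338 bases from its start. Cttn (cortactin, an actin regulator), Srp68 (of the signal recognition particle), Ppt1 (a lysosomal thioesterase) and Ssu72 (an RNA polymerase II phosphatase, at a position that also lies in another gene's span) had log2 ratios of -3.58, -3.54, -3.50 and -3.49. In all of them both IP values lay below both Input values, which the rule for naming sites also required.

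**Figure D1:**
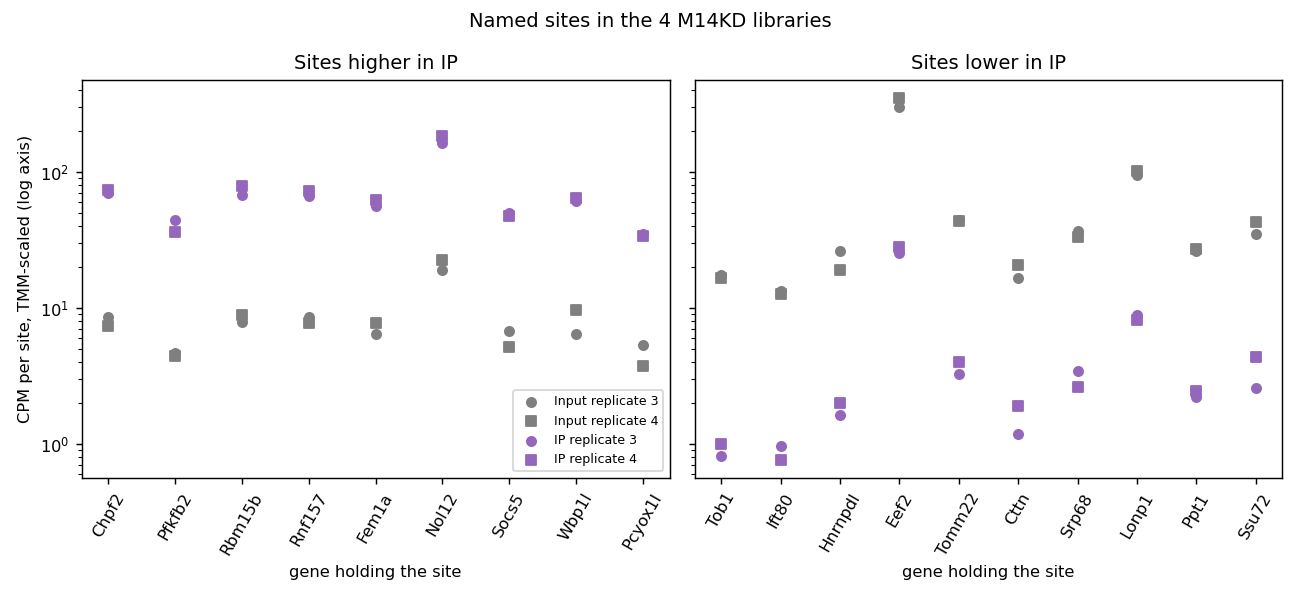
TMM-scaled CPM (log axis) at the 9 named sites higher and the 10 named sites lower in IP, in the 4 M14KD libraries. Grey marks are Input and purple marks IP, with circles for replicate 3 and squares for replicate 4. The IP and Input marks do not overlap at any of these sites, which the rule for naming them required. The highest Input values are 300.5 and 351 CPM at Eef2.

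Where a site lay along its gene went with its ratio. Strand was known for the genes of 25652 tested sites, of which 34.1% were higher and 33.0% lower, with a median log2 ratio of 0.05. Within 100 bases of the annotated gene start, 460 of 565 sites (81.4%) were lower and 19 higher, with a median of -1.14 (-1.08 in replicate 3 and -1.10 in replicate 4). This median stays below 0 with column totals and is above 0 on the mitochondrial base. From 200 to 500 bases the share of lower sites was 56.0% and from 500 to 1000 bases 37.7%, near that of all sites.

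At the other end, 46.2% of 3651 sites within 500 bases of the gene end were lower and 26% higher, with a median of -0.32. With column totals and on the mitochondrial base this median is above 0. Sites 500 to 2000 bases from the end had a median of 0.00, with 33.4% higher and 34.9% lower. Elsewhere in the span 38.1% of 12961 sites were higher and 26% lower, with a median of 0.23. The share of higher sites was greatest 2000 to 5000 bases from the end, at 41.8% of 6213 sites. Sites more than 50000 bases from the end had 36.5% higher and 21.2% lower. Distances run along the genome and include introns, and exons, untranslated regions and stop codons were not used here.

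**Figure D2:**
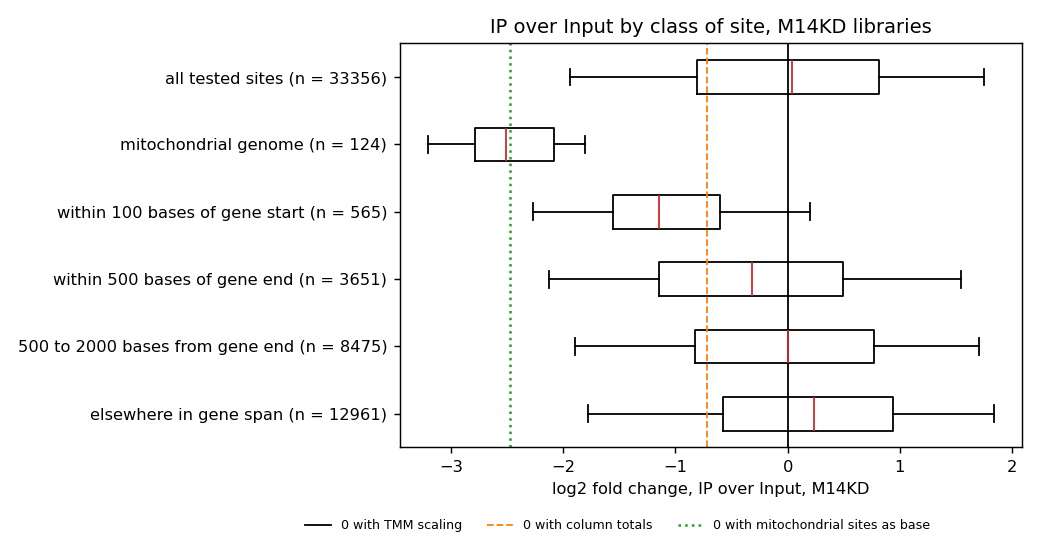
Log2 fold change of IP over Input in M14KD for all tested sites, mitochondrial sites and 4 classes of position in the gene span. Boxes give the middle 50%, red lines the median, whiskers the 5th and 95th percentiles, and n the number of sites; the lines mark 0 under 3 scalings. The start class has a median of -1.14 with TMM scaling and lies to the right of the mitochondrial base line, where it counts as higher.

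**Figure D3:**
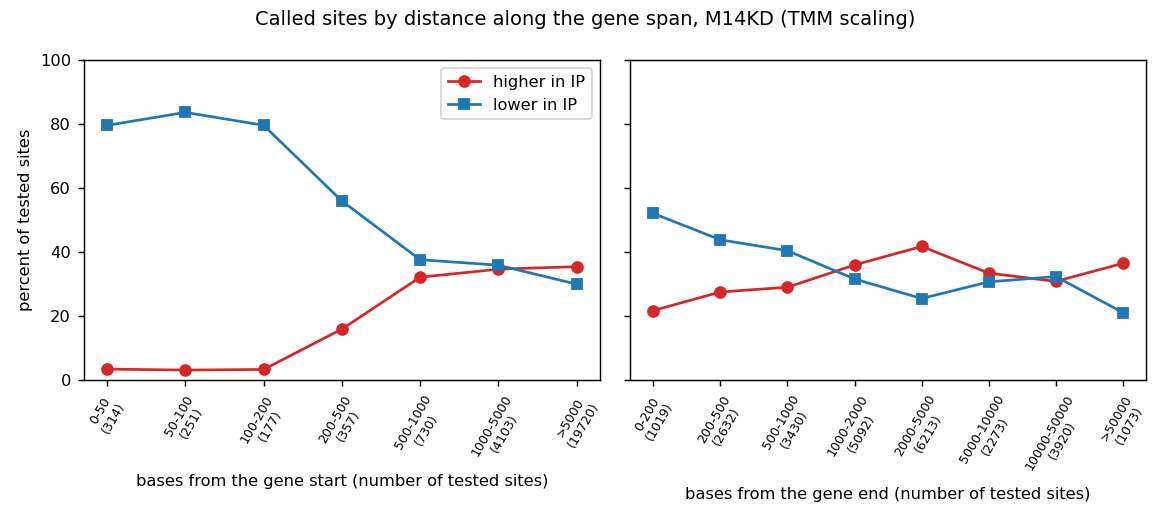
Percent of tested sites called higher (red circles) or lower (blue squares) in IP by distance from the annotated gene start (left) and end (right), with the number of sites in each bin in brackets (TMM scaling). Lower calls make up 79.6% to 83.7% of sites in the 3 bins within 200 bases of the start, and higher calls are most frequent, 41.8%, at 2000 to 5000 bases from the end; with column totals or on the mitochondrial base the shares of higher calls are larger.

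Genes with a site near their start had low ratios in the rest of the gene too. In 198 genes with sites within 100 bases of the start and others more than 1000 bases from it, the median was -1.09 at the start and -0.72 elsewhere. Within these genes the start was lower in 112 (56.6%) by the fit, with a median difference of -0.28 on the log2 scale, which no scaling changes. With each replicate taken alone, the start was lower in both replicates in 102 of the 198 genes (51.5%).

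By kind of gene, the median was 0.05 over 31220 sites in protein-coding genes and 0.22 over 295 sites in long noncoding RNA genes, of which 107 were higher and 74 lower. In 48 sites of pseudogenes 31 were lower (64.6%), with a median of -0.99 (below 0 also with column totals, above 0 on the mitochondrial base). Reads from a pseudogene and its parent gene can be split in mapping, so these values are uncertain. The 479 tested sites outside every gene span had a median of -0.22, with 21.7% higher and 35.1% lower. Each of the 124 mitochondrial sites was lower, with a median of -2.51, also with column totals; on their own base their median is near 0 by construction.

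Summed over their sites, 4532 of 6379 tested genes (71%) differed between IP and Input by edgeR's test, 2263 (35.5%) higher and 2269 (35.6%) lower, with a median SE of 0.15. A sum may count a read more than once, since 72.6% of sites had another within 100 bases. Against a minimum fold of 2, 288 genes (4.51%) were higher and 778 (12.2%) lower. With column totals 3916 genes were higher and 1094 lower, and on the mitochondrial base 6167 and 22. The ratio differed with the number of sites in a gene. Counting all named sites, tested or not, the median was -0.56 over 1504 genes with 1 site, -0.14 with 2 to 4 and 0.24 with 5 to 9. It was 0.49 over 842 genes with 10 to 24 sites, of which 66.5% were higher and 16.3% lower. Over the 55 genes with 25 or more sites it was 0.43, with 70.9% higher and 12.7% lower. The count of sites in a gene depends on how sites were picked, which is not given in the sources used here. By level in the SCR Input libraries, which the M14KD ratio does not use, the 1276 lowest genes had a median of 0.40 and the 1276 highest -0.30, with 30.9% higher and 53.9% lower among the latter. The lowest group ran from 0 to 8.13 CPM in SCR Input. Genes with so little Input could pass the filter through their IP counts alone, so the median of this group may be set in part by the filter.

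Among called nuclear genes with at least 2 sites, at least 10 counts in each M14KD library and IP on 1 side of Input, those with the highest ratios included Sowahc, Gata2, Tbccd1, Phyhipl and Socs6. Sowahc, an ankyrin-repeat protein, had 8.83 and 8.42 CPM in Input and 57.2 and 53.3 in IP, a 6.39-fold difference (log2 2.68, SE 0.18). Gata2, a transcription factor of blood and neural development, had 8.83 and 6.89 CPM in Input and 44.5 and 47.4 in IP (log2 2.54, SE 0.20). Phyhipl had 37.9 and 32.6 CPM against 205 and 190, and Socs6, another suppressor of cytokine signalling, 19.9 and 16.1 against 100.3 and 92.1. The lncRNA gene 5033430I15Rik (2.16), Pcyox1l (2.12), Spata7 (2.08) and Acvr2a, an activin receptor (2.00), were also among the named genes.

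By the same rule the lowest genes were Cttn, with 31.7 and 34.5 CPM in Input and 2.87 and 3.96 in IP, a 9.65-fold difference (log2 -3.27, SE 0.20), and Fam162a, with 474 and 445 CPM against 60 and 59.9 (log2 -2.94, SE 0.09). Srp68 (-2.79), Atp5b (-2.72), the catalytic beta subunit of ATP synthase, Arhgdia (-2.63) and Emc7 (-2.63), of the membrane protein insertase of the endoplasmic reticulum, were next. Map3k15, a kinase, had -2.63, Lamp1, a lysosomal membrane protein, -2.61, and the pseudogene Gm4617, whose reads may belong to its parent gene, -2.80. Gcg, by far the most counted of these genes, had 77142 and 75570 CPM in Input and 12489 and 12404 in IP, a 6.14-fold difference (log2 -2.62, SE 0.06, edgeR adjusted p = 4.186e-14). On the mitochondrial base Arhgdia, Emc7, Map3k15 and Lamp1 stayed below 0 but did not pass the test.

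Higher and lower sites were often found in the same gene. Of 4833 genes with at least 2 tested sites, 1706 (35.3%) had both kinds, and of 3830 with at least 3, 93 had higher sites only and 473 lower sites only. Irs2, which couples the insulin and IGF1 receptors to phosphoinositide 3-kinase, had the most sites, 30 higher and 23 lower of 68. They formed a stretch from 266 to 4278 bases from the start, with 14 higher and 17 lower of 38, and a stretch from 21982 to 23978 bases, with 16 higher and 6 lower of 30. The most enriched Irs2 site, 1639 bases from the end, had 28.1 and 23.5 CPM in Input and 107 and 113 in IP. The least enriched, 2572 bases from the start, had 18.7 and 25 CPM in Input and 4.54 and 5.23 in IP.

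Il1r1, the interleukin 1 receptor, had 20 higher and 37 lower sites of 63, and its 8 sites between 14804 and 15432 bases from the start were all lower. All 20 higher sites lay within 3113 bases of the end, where 27 others were lower. Its most enriched site, 2726 bases from the end, had 50.8 and 57.8 CPM in Input and 164 and 165 in IP, whereas the least enriched, 479 bases from the end, had 61.3 and 54.0 in Input and 8.34 and 8.07 in IP. Son, a splicing scaffold of nuclear speckles, had 18 higher and 24 lower sites of 51, of which 17 higher and 23 lower were mixed among 49 sites 7143 to 12160 bases from its start. Genes with mostly higher sites were Peg10, which is imprinted and stems from a retrotransposon (40 higher and 5 lower of 61), D17H6S56E-5 (33 and 9 of 51), Zim1, an imprinted zinc finger gene (29 and 7 of 44), and Trappc9, of a vesicle tethering complex (26 and 1 of 37). The most enriched Peg10 site had 17.3 and 13.0 CPM in Input and 106 and 97.1 in IP, and the least enriched 12.6 and 10.4 against 2.16 and 2.92.

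Gcg was of the other kind, with 23 of 23 sites lower. Its 3 sites within 59 bases of the start had log2 ratios from -1.84 to -1.31. The 8 sites 3100 to 3169 bases from the start ran from -3.16 to -2.53, the 6 sites 4924 to 5079 bases from it from -3.21 to -2.64, and the 6 sites near the end from -3.18 to -2.25. The sites at the start were thus the least depleted of Gcg. With column totals all 23 stay below 0, and on the mitochondrial base some turn above it, among them the 3 at the start.

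**Figure D4:**
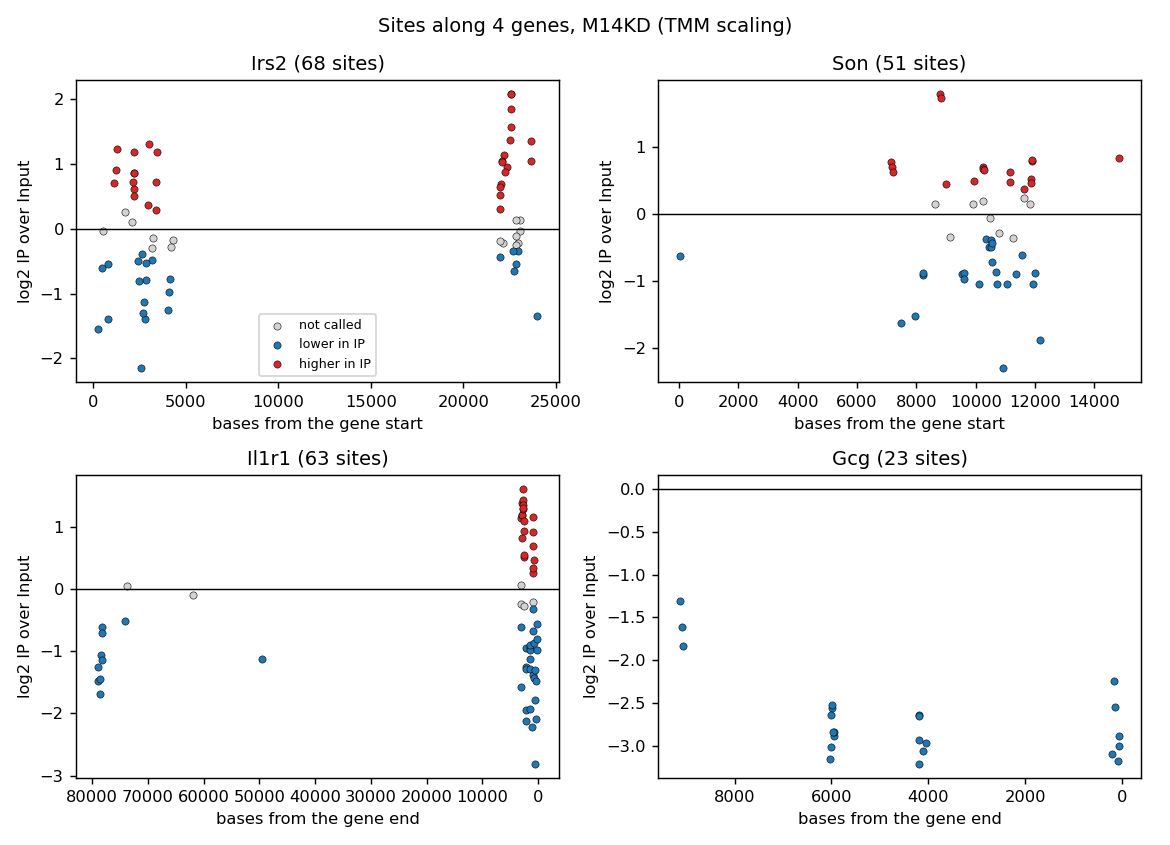
Log2 fold change of IP over Input in M14KD at each site of Irs2, Son, Il1r1 and Gcg (TMM scaling), against bases from the gene start (Irs2, Son) or end (Il1r1, Gcg). Red sites are higher, blue sites lower and grey sites not called; Irs2 holds 30 higher and 23 lower sites, and all 23 Gcg sites lie below -1.30, those at the start above 0 on the mitochondrial base.

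Gene lists are described by their counts beside those of all tested genes, 35.5% higher and 35.6% lower with a median of 0.02. List members with little Input could pass the filter through their IP counts alone, so counts of higher members may be set in part by it. The m6A writer list had 7 measured genes of 12, with 5 higher, 1 lower and a median of 0.59 (0.57 above that of all genes, and 0.36 above it without replicate 4). Rbm15b had 149 and 190 CPM in Input and 428 and 518 in IP (log2 1.48, SE 0.12), with 11 higher and 4 lower of its 18 sites. Wtap, the subunit that anchors the complex in nuclear speckles, had 156 and 132 CPM against 229 and 206 (log2 0.59, SE 0.11). Rbm15 had 1.11 (SE 0.34), Cbll1 0.63 (SE 0.19) and Virma 0.37 (SE 0.10), and Pcif1, which methylates the base next to the cap, had -0.06 (SE 0.19) and did not pass. Mettl14 was the lower member, with 11.8 and 8.42 CPM in Input and 3.26 and 2.02 in IP (log2 -1.93, SE 0.32), lower at both of its 2 sites, and it was above 0 on the mitochondrial base. Mettl3 had no site in the table.

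Among 9 measured readers and erasers 2 were higher and 3 lower, with a median of -0.17; with column totals 4 were higher and 1 lower, and on the mitochondrial base all 9 were higher. The higher members were Ythdf3 (1.06, SE 0.17), with 11 of 17 sites higher, and Ythdf2 (0.57, SE 0.08), with 217 and 199 CPM in Input and 309 and 310 in IP. Ythdf1 (-0.17, SE 0.08), the nuclear reader Ythdc1 (-0.15, SE 0.25) and the demethylase Fto (-0.09, SE 0.11) did not pass. Hnrnpa2b1 (-1.63), Alkbh5 (-0.62) and Hnrnpc (-0.49) were lower.

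Most transcription factors of the alpha cell identity list were higher, and its most abundant secreted products were lower. Of 16 measured genes 9 were higher and 5 lower, with a median of 0.26. The higher ones were Pou3f4 (1.08), Pax6 (0.79), Peg10 (0.76), Insm1 (0.66), Neurod1 (0.65), Rfx6 (0.64), Irx2 (0.41), Isl1 (0.28) and Foxa2 (0.25), all but Peg10 transcription factors of the endocrine pancreas. The lower ones were Gcg, Ttr, which encodes transthyretin and had 15262 and 15033 CPM in Input and 4614 and 4365 in IP, Pcsk2, the convertase that cuts proglucagon, and the factors Myt1 and Irx1. With column totals the same list had 11 higher and 3 lower members, and on the mitochondrial base 15 and 1.

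Secretory granule genes were mostly lower, 11 of 16 with 1 higher and a median of -0.997, which became 9 lower and 5 higher with column totals and 16 higher on the mitochondrial base. Chga, chromogranin A, had 24144 and 25226 CPM in Input and 6485 and 7008 in IP (log2 -1.87, SE 0.06), and Scg2, secretogranin II, 7393 and 7258 against 3074 and 3077. Ptprn, Chgb, the zinc transporter Slc30a8 and Pcsk2 were lower by the same test. Rab27a, a GTPase of granule docking, was the higher member (0.70, SE 0.14). Vgf (-0.11, SE 0.13) and Scg3 (-0.03, SE 0.12) did not pass.

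Genes of energy metabolism and protein synthesis had low ratios. The 8 mitochondrially encoded genes were all lower, from -2.71 in CYTB to -1.92 in ND4, also with column totals. COX1 had 96422 and 91644 CPM in Input and 14401 and 14828 in IP. The respiratory chain list held 50 nuclear genes, among them assembly factors and the pseudogene Uqcrh-ps2 (-0.62, SE 0.15), whose reads may belong to its parent gene. Of the 50, 45 were lower and 2 higher, with a median of -1.18. These became 30 lower and 9 higher with column totals and 2 and 43 on the mitochondrial base. Atp5a1 (-2.91, SE 0.09) and Atp5b, the catalytic core of ATP synthase, were lowest. Ndufaf4 (1.29, SE 0.10) and Ndufaf1 (0.33, SE 0.10), which are assembly factors of complex I and not subunits, were the higher members. Of the other assembly factors of complex I in the list, Ndufaf2 (-0.71, SE 0.11) was lower and Ndufaf7 (-0.10, SE 0.14) did not pass.

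Of 10 cytosolic ribosomal protein genes 7 were lower and 0 higher, with a median of -1.20; with column totals 5 were lower and 1 higher, and on the mitochondrial base 9 were higher. Rpl41 had 3293 and 3280 CPM in Input and 1095 and 1015 in IP. Some ribosomal protein genes have many processed copies, so their counts are uncertain. Of 19 translation factors 14 were lower and 1 higher, median -0.78 (7 lower and 5 higher with column totals, 19 higher on the mitochondrial base). Eef1a1 (-2.06, SE 0.08) was lowest, Eef2 had 5819 and 7068 CPM against 3641 and 4013 (log2 -0.75, SE 0.09), and Eif1a was higher (0.67, SE 0.11). Housekeeping and cytoskeleton genes were lower in 10 of 11, median -1.45 (7 lower and 1 higher with column totals, 8 higher on the mitochondrial base), with Ubb (-2.58) lowest and Map1b (0.67, SE 0.10), a microtubule-associated protein with 28 sites, higher.

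Splicing and polyadenylation factors were lower in 19 of 28 and higher in 3, with a median of -1.13 (17 lower and 8 higher with column totals, 28 higher on the mitochondrial base). Srsf6 had 797 and 795 CPM in Input and 422 and 402 in IP (log2 -0.95, SE 0.07). Tra2a (-1.86), Srsf3 (-1.83) and Hnrnpd (-1.81) were lowest, and Srsf5 (1.03, SE 0.10), Hnrnph1 (0.89, SE 0.14) and Pcf11 (0.82, SE 0.18), a factor of transcript cleavage, were higher. The Hnrnph1 site near the gene's start whose sequence is printed had 47.2 and 43.2 CPM in Input and 121 and 95.7 in IP.

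Zinc finger genes, listed by name and not by function, and chromatin regulators were more often higher than lower. Of 160 zinc finger genes named Zfp, 89 were higher and 11 lower, with a median of 0.70. Some higher members had very little Input, such as Zfp940 with 0.37 and 0.38 CPM in Input and 2.1 and 2.3 in IP. Such members could pass the filter through their IP counts alone. Of 38 chromatin regulators 24 were higher and 6 lower, median 0.56. Both lists had more higher members with column totals (132 and 32) and on the mitochondrial base (159 and 38). Zfp91 had 232 and 246 CPM in Input and 696 and 707 in IP (log2 1.55, SE 0.08) and Zfp207 172 and 148 against 373 and 346. Zfp384 was the lowest, at -3.16 (SE 0.35) with 1 site. Among chromatin genes the remodeller Chd7 (1.32, SE 0.24), the methyltransferase Setd5 (1.22, SE 0.10) and Kmt2b (1.20, SE 0.16) were highest. Ehmt2 (-1.34), Chd4 (-1.32) and the Polycomb genes Ring1 (-1.07) and Rnf2 (-0.83) were lower, while the Polycomb genes Suz12 (1.11) and Bmi1 (0.57) were higher, so Polycomb genes were found on both sides.

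The insulin, IGF and mTOR list also had members of both kinds, 11 of 20 higher and 6 lower, with a median of 0.56. Pik3ca (1.48, SE 0.19), the catalytic subunit of phosphoinositide 3-kinase, Foxo3 (1.47, SE 0.15), a transcription factor that Akt shuts off, and Insr (1.33, SE 0.22), the insulin receptor, were highest, and Irs2 had 2079 and 2161 CPM in Input and 2832 and 3009 in IP (log2 0.46, SE 0.07). The kinases Akt1 (-1.87, SE 0.10) and Akt2 (-1.58, SE 0.13) and the translation inhibitor Eif4ebp1 (-1.05, SE 0.09) were lower, whereas Eif4ebp2 was higher (0.65, SE 0.10). With column totals the list had 12 higher and 5 lower genes, and on the mitochondrial base 20 higher.

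Immediate early genes were higher in 7 of 16 and lower in 3, median 0.30 (13 higher and 1 lower with column totals, 16 higher on the mitochondrial base). Jund had 919 and 966 CPM in Input and 1428 and 1559 in IP, and Jun had 1.4 (SE 0.13). The 3 lower members were the helix-loop-helix inhibitors Id1, Id2 and Id3, of which Id2 had 2887 and 2714 CPM in Input and 1869 and 1843 in IP and turned above 0 with column totals. Klf6 (2.20, SE 0.48) was highest, from 1 site with 1.10 and 1.53 CPM in Input, so it too could pass the filter through IP alone.

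Amino acid transport and metabolism genes were lower in 14 of 23 and higher in 3, median -0.41; with column totals 12 were higher and 8 lower, and on the mitochondrial base all 23 were higher. Got2, mitochondrial aspartate aminotransferase (-2.07, SE 0.08), Asns, asparagine synthetase (-1.82, SE 0.08), and the glutamine transporter Slc38a5 (-1.73, SE 0.10) were lowest. Slc7a5, the large neutral amino acid transporter, was higher, with 534 and 577 CPM in Input and 829 and 898 in IP. Aldh18a1, of proline synthesis, had a value near 0 (-0.03, SE 0.08), which was 0.03 without replicate 3 and -0.10 without replicate 4.

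Of 22 genes of the unfolded protein and integrated stress responses 10 were lower and 5 higher, median -0.10; with column totals 3 were lower and 13 higher, and on the mitochondrial base 22 were higher. The chaperone Hspa5 (-2.01, SE 0.09) was lowest and Atf4, the central transcription factor of the response, had 1211 and 1210 CPM against 705 and 645. Dnajb9 (0.95), the sensor kinase Eif2ak3 (0.82), Atf3 (0.81) and Sesn2 (0.69) were higher. Glucose and lipid genes were lower in 9 of 16 and higher in 6, median -0.49 (6 lower and 8 higher with column totals, 16 higher on the mitochondrial base). Scd2, a desaturase, had 1169 and 1177 CPM against 523 and 508, and the glucose transporter Slc2a1 had 0.65 (SE 0.12). Sqle, of sterol synthesis, was called at 0.17 (SE 0.07) but not without replicate 3 or without replicate 4, nor by DESeq2.

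Cell division genes were lower in 14 of 21 and higher in 1, median -0.64 (8 lower and 8 higher with column totals, 19 higher on the mitochondrial base), with Pcna (-2.22) and the replicative helicase subunit Mcm2 (-2.18) lowest and Kif20b (1.07) higher. Mki67, with 31 sites, had -0.09 (SE 0.18) and did not pass. Ion channels and receptors had 4 higher and 5 lower of 13, from the channel kinase Trpm7 (-1.92, from 1 site) to the glutamate receptor Gria2 (1.65). Of these the pacemaker channel Hcn2 had 599 and 685 CPM in Input and 1070 and 1144 in IP. With column totals the channel list had 8 higher and 3 lower genes, and on the mitochondrial base 12 higher.

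Imprinted genes were higher in 4 of 7 and lower in 1, median 0.76 (0.74 above that of all genes, and 0.37 above it without replicate 3), with Zim1 at 1062 and 863 CPM in Input and 2107 and 1845 in IP, and Gnas, which encodes a stimulatory G protein subunit, at 7167 and 7676 against 2466 and 2777 (log2 -1.50, SE 0.07, above 0 on the mitochondrial base). Of 6 long noncoding RNAs 3 were higher, Tug1 (0.82, SE 0.14), Neat1 (0.55, SE 0.09) and Ftx (1.14, SE 0.48), and Snhg11 was lower (-0.71, SE 0.23). Malat1 had 0.29 (SE 0.17) and did not pass, but passed with the same value of 0.29 when the replicate number was a block. The linker histone gene H1f0 was higher (0.67, SE 0.09).

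**Figure D5:**
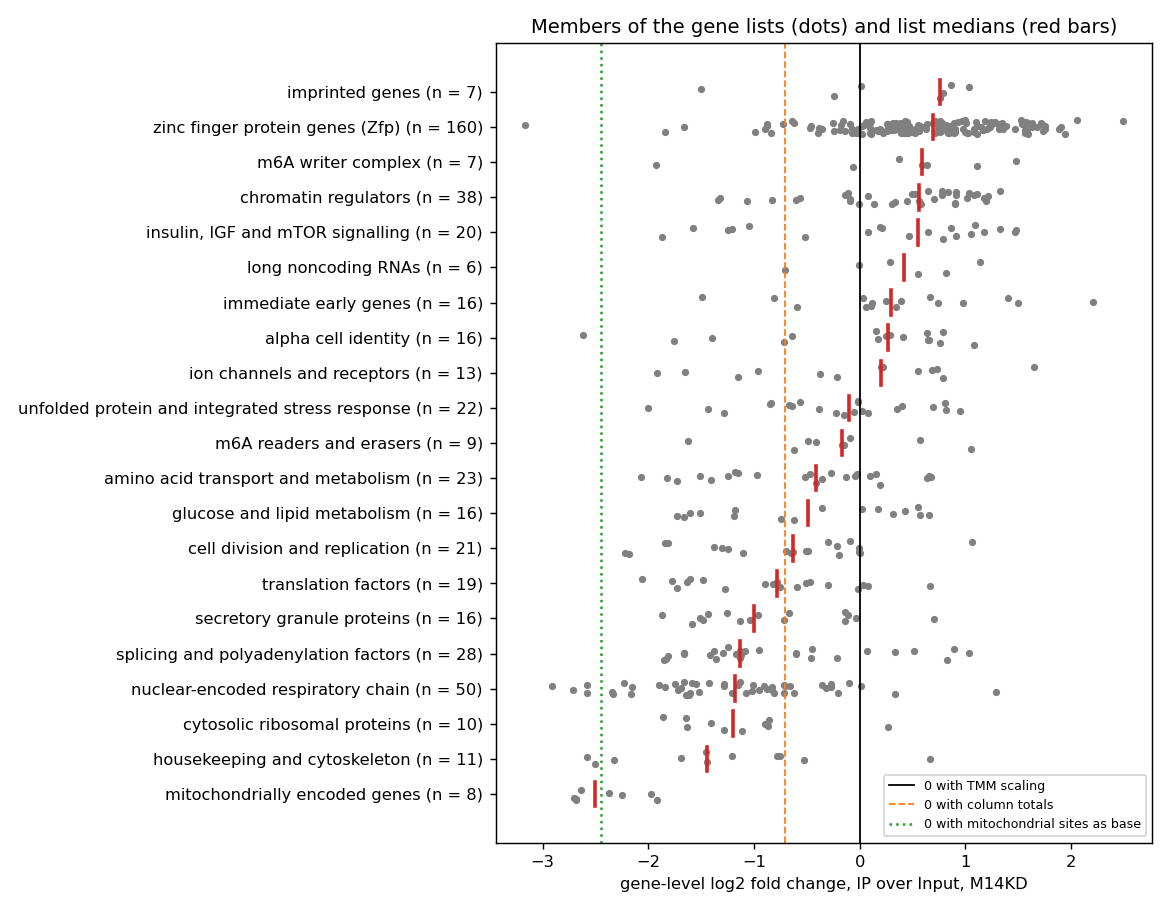
Gene-level log2 fold change of IP over Input in M14KD for the measured members of each gene list with at least 6 of them (grey dots), with list medians as red bars and lines at 0 under 3 scalings. Medians run from -2.50 for the mitochondrially encoded genes to 0.76 for imprinted genes with TMM scaling; against the line of the mitochondrial base all medians but the first lie above 0.

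The comparison with SCR asks where the knockdown profile departs from that of control cells. By edgeR's test of the interaction of genotype and pull-down, 0 of 33356 sites (0%) and 0 of 6379 genes (0%) passed. At an unadjusted p under 0.05 there were 1242 sites, against 1667.8 by chance alone, and 168 genes, against 319, and DESeq2 called 0 of each. The median SE of this difference was 0.30 for a site and 0.21 for a gene, so small differences were not detectable with 2 libraries a group. In SCR 67.4% of sites were called, 34% higher and 33.4% lower, and 69.9% of genes, 35.2% higher and 34.7% lower. Of the sites higher in M14KD, 9947 were also called higher in SCR, 88.3% of the M14KD calls and 87.6% of the SCR calls. For lower sites the shared number was 9936, or 89.9% and 89.2%, and 1 site was called in opposite directions. Genes shared 2015 higher and 2070 lower calls, 89.0% and 91.2% of those in M14KD and 89.8% and 93.5% of those in SCR.

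The width of the profile did not separate the genotypes. The log2 range of the middle 80% of sites was 2.88 and 2.86 in the M14KD replicates and 2.84 and 2.87 in the SCR replicates, values that overlap, and 2 libraries against 2 cannot give an exact two-sided permutation p below 0.333. The start class had 83.5% of sites lower in SCR and the class within 500 bases of the end 46.0%. The Chpf2, Rbm15b and Nol12 sites had log2 ratios of 2.79, 2.89 and 2.90 in SCR, and Gcg had -2.68 and Mettl14 -1.70 at gene level. None of these sites and genes passed the test of the difference.

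The sites with the lowest p for a difference are given as values, since none passed. A site in Tenm4, a teneurin, at position 96906719 of chromosome 7, had 6.85 and 7.08 CPM in M14KD Input and 4.69 and 5.15 in M14KD IP, against 2.09 and 2.47 in SCR Input and 6.90 and 8.50 in SCR IP. The log2 difference between genotypes was -2.25 (SE 0.46, edgeR adjusted p = 0.891), and this site alone with the one in Atoh8 passed on the mitochondrial base. The site in Atoh8, a transcription factor, at position 72206776 of chromosome 6, had 34.6 and 42.5 CPM in M14KD Input and 36.9 and 21.6 in M14KD IP, against 75.3 and 37.1 in SCR Input and 18.9 and 18.8 in SCR IP. Its log2 difference of 1.19 (SE 0.30) became 1.17 with the replicate number as a block and passed in that fit. Without replicate 2 the difference was 1.60, but that fit keeps only the SCR Input library with 75.3 CPM. Sites in Usp47 (1.79, SE 0.42), Lrrc8d (1.48, SE 0.39) and Adprhl2 (0.92, SE 0.26) had higher ratios in M14KD and sites in Ppp1r26 (-1.79, SE 0.47), Mrps30 (-0.90, SE 0.22) and Lrpap1 (-0.70, SE 0.19) lower ones. A further site in Espnl (3.92, SE 0.97) had 0 and 0.37 CPM in the M14KD Input libraries, and that fitted value depends on the prior count.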

How the data were processed

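The deposited table gives raw counts as whole numbers, 1 column for each of 8 libraries per the file headers, and was not normalized by the authors. The submitters' processing notes name cutadapt, UMI-tools, STAR and mm10. Tool versions, site calling and counting windows were not given in the sources used here. Sites were named by RefSeq gene spans of GRCm38.p6, and strand and sequence came from its promoter table. Sites in several coding spans (1272) or in none (561) were left unnamed, and another 1065 had a name but lay in more than 1 span. There were 0 unused value columns.

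Counts were fitted with edgeR 4.0.16 in R 4.3.3 (filterByExpr, TMM, quasi-likelihood test, Benjamini-Hochberg over all features, threshold 0.05) in 1 model of all 8 libraries; 418 sites and 152 genes failed the filter. SE was taken as |log2 fold change| divided by the root of F. DESeq2 1.42.0, other scalings and filters, each replicate left out, the M14KD libraries alone, thinned sites and a replicate block were alternatives. IP and Input share replicate numbers, and the deviations of same-numbered libraries from their group means correlated at 0.21 (SCR) and 0.12 (M14KD) over sites and at 0.28 and 0.20 over genes. With 2 libraries a group, the deviations of its 2 members mirror each other. The numbers were taken to pair the samples in the ratios for each replicate and in the replicate block. The reported fit had no term for this pairing.

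Named sites were called sites with 1 gene name, at least 10 counts in each M14KD library and IP on 1 side of Input, 1 per gene, the 10 largest each way outside the mitochondrial genome; genes followed the same rule with at least 2 sites. The 5 genes with most sites among those with both kinds, the 5 with most higher sites, the list members with most counts, Gcg and Mettl14 were added, and other list members were chosen after their values were seen. Some genes that met these rules are not reported here. Members, lists and tests were chosen with earlier results of these data known.

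On simulated counts (33774 sites), the test of IP over Input in M14KD found 25.8% of changes of 1.5-fold, 80% of those of 2-fold and 97.1% of those of 3-fold, with 4.17% false calls. For genes (6531) the shares were 65.2%, 91.8% and 98.4%, with 2.86% false calls. Changes were put only in well counted features, 62 to 70 sites and 61 to 73 genes for each fold. All other features were simulated with no difference, whereas 66.9% of the real sites were called. These shares therefore do not carry over to sites with few counts, nor the false calls to the real data. The test of the difference between genotypes was not simulated. Counts of the M14KD replicates differed by more than sampling noise (chi-square over degrees of freedom 1.35 in Input, 1.95 in IP).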

Additional observations from a re-analysis of the deposited data

How the results depend on the processing

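Counts of called sites and genes kept within 1.5 times of the reported ones with DESeq2, its size factors, either filter, the M14KD libraries alone, the replicate block and each replicate left out. Other scalings moved them: with column totals 19535 sites were higher and 5632 lower (genes 3916 and 1094), and on the mitochondrial base 31992 and 178 (genes 6167 and 22). Against a minimum fold of 2 there were 3093 and 4332 sites and 288 and 778 genes, and with 1 site kept per 100 bases, which leaves 17816 sites to test, 5843 and 5777. The cause of the scaling shifts was not tested.

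With the replicate number as a block 1 site, in Atoh8, passed for a difference between the genotypes, in place of 0, and Malat1 passed at gene level in M14KD with the same log2 value. The block changed no other call among the sites and genes named. On the mitochondrial base 2 sites passed for the difference, and with replicates left out 0 to 1.

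Relative to all stranded sites, the median of the start class was -1.19 to -1.15 with a replicate left out. The class within 500 bases of the end had -0.37 in every such fit, with the M14KD libraries alone and over sites in 1 gene span alone (an alternative chosen after seeing the data), and -0.29 within 1000 bases of the end. Sites 500 to 2000 bases from the end had -0.039 to -0.036 with a replicate left out, -0.044 on the mitochondrial base, -0.046 in M14KD alone and -0.052 in 1 span alone. Elsewhere in the span the value was 0.19 with a replicate left out and 0.18 on the mitochondrial base.

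Relative to all genes, list medians with a replicate left out were 0.36 to 0.63 for m6A writers, -0.25 to -0.18 for readers and erasers, 0.25 to 0.27 for alpha cell identity, -0.44 to -0.42 for amino acid genes, -0.16 to -0.15 for the stress responses, 0.54 to 0.71 for insulin and mTOR genes, 0.29 to 0.32 for immediate early genes, -0.83 to -0.69 for translation factors and -1.26 to -1.20 for the respiratory chain. They were 0.37 to 0.74 for imprinted genes, -1.16 to -1.13 for splicing factors, -0.73 to -0.64 for cell division, -0.55 to -0.40 for glucose and lipid genes and -1.45 to -1.44 for housekeeping genes. Ribosomal proteins had -1.31 with the M14KD libraries alone. No list changed sign in these fits when measured against all genes. A change of scaling moves all genes by nearly the same amount, so it could hardly alter these differences and is no check on them.

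Single genes that are lower with TMM scaling, or near 0 for Aldh18a1, turned above 0 elsewhere. With column totals the log2 values were 0.68 for Aldh18a1, 0.07 for Manf, 0.12 for Id2, 0.41 for Eif4g1, 0.11 for Brd2, 0.25 for Hnrnpu and 0.62 for Mki67. On the mitochondrial base they were 0.52 for Mettl14, 0.83 for Hnrnpa2b1, 0.70 for Ttr, 0.58 for Chga, 1.2 for Scg2, 2.42 for Aldh18a1, 1.81 for Manf, 1.61 for Atf4, 1.86 for Id2, 0.81 for Rpl41, 0.82 for Rpl13a, 1.7 for Eef2, 2.15 for Eif4g1 and 0.08 for ND2. They were 0.84 for Uqcrfs1, 0.11 for Ndufa4, 0.95 for Gnas, 1.85 for Brd2, 1.99 for Hnrnpu, 1.5 for Srsf6, 2.37 for Mki67, 1.2 for Mcm3, 1.27 for Scd2 and 1.0 for Tubb5. Aldh18a1 was -0.10 to 0.03 with a replicate left out, and the cause was not tested. None of the 19 sites named for IP over Input changed sign or lost its call under these scalings.

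The depth of Input, with a median of 31 to 33 counts per M14KD site against 162 to 167 in IP, limits the precision of each ratio. All scalings use counts at sites, so a change equal at all of them was not measurable.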
